A study of Mus musculus with 12 samples.

Results

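Striatal synaptosomes from Shank3 transgenic (TG) mice were compared with those of wild-type (WT) mice in the RNA of the whole synaptosome preparation, called input here. The comparison used the 3 TG input and 3 WT input libraries, 6 of the 12 libraries of the series, chosen by their labels. The other 6 libraries hold RNA of synaptosomal polyribosomes. All mice were male C57BL/6J at postnatal day 70, and both groups were striatum; the TG group carried a Shank3 transgene and the WT group had no allele or treatment named. The promoter, copy number and tag of the transgene, and whether a library is 1 animal or a pool, were not stated in the labels read here. P-values therefore measure the spread between these libraries, which may in part be technical.

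Synaptosomes are nerve endings that pinch off and reseal when brain tissue is homogenized, often with a piece of postsynaptic membrane attached. SHANK3 is a large scaffold protein of the excitatory postsynaptic density. It binds DLGAP and HOMER proteins, which link it to NMDA and metabotropic glutamate receptors, and it reaches the actin cytoskeleton through proteins such as cortactin. It is abundant in the striatum, whose principal cells are the medium spiny neurons of the direct and indirect pathways.

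Values are the authors' normalized estimated counts per gene, called normalized counts below. A gene was tested when at least 3 of the 6 libraries reached 10, which 16341 of 21492 genes did. Differences are TG minus WT on log2(value + 1), each TG library set against the WT library of the same number, and the fit was limma with the number as a block. The estimated depth was 62.2 to 86.3 M reads per input library. Markers of the labelled tissue were present in all 6 libraries. Ppp1r1b, which encodes DARPP-32 of medium spiny neurons, had 4196 to 11531 normalized counts per kilobase of exonic length. The cortical marker Slc17a7 (4248 to 12601 per kilobase) and the choroid plexus gene Ttr (193 to 12111) were present too, and the endothelial marker Cldn5 was the lowest marker read (27.2 to 61.6). Fewer cells of a type and less RNA per cell cannot be told apart in such bulk preparations.

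Library number carried more of the variation than genotype. Over the 14282 genes averaging 5 or more on the log2 scale, number held 71.7% of the sum of squares on 2 degrees of freedom and genotype 8.36% on 1, the remainder being residual. For Shank3 the order was the other way, with 57.6% for genotype, 39.4% for number and 3.02% residual. The first principal component (43.3% of the variance) separated both libraries of number 3 (-36.3 in WT and -43.7 in TG) from the other 4 (11.1 to 27.2). The second (30.8%) separated number 1 (33.1 and 26.6) from number 2 (-17.1 and -37.9).

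Shank3 was higher in the TG library of every pair. It lies on chromosome 15 at 89499623 to 89560261 of GRCm38. WT libraries 1, 2 and 3 had 2121, 4162 and 5858 normalized counts, and TG libraries 1, 2 and 3 had 5456, 17500.5 and 14107. The WT library of number 3 exceeded the TG library of number 1, so the groups overlapped although each pair differed the same way, by 1.36, 2.07 and 1.27 on the log2 scale. The paired log2 difference was 1.57 ± 0.15 (moderated SE of limma, n = 3 pairs, 95% interval 1.22 to 1.91), a fold of 2.96 (2.33 to 3.77). Here and below, the SE and interval of a gene borrow variance from other genes. They can be narrower or wider than the 3 pairs alone would give. Without the variance trend the SE of Shank3 was 0.20.

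This was the smallest p-value of all genes tested (3.86e-06), and after Benjamini-Hochberg adjustment it missed the threshold of 0.05 (adjusted p = 0.0631, limma). With the pair of number 1, 2 or 3 left out, the difference was 1.67, 1.32 and 1.72 and passed (adjusted p = 0.0426, 0.00122 and 0.0214). Shank3 did not pass without the block (unadjusted p = 0.0127, limma), without the variance trend or with no filter on low values (adjusted p = 0.462, limma). An exact permutation test of 3 against 3, two-sided, gave p = 0.2, where the smallest possible value is 0.1. The exact paired test, which flips the signs of the 3 pair differences, gave p = 0.25, the smallest value that 3 pairs allow.

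**Figure D1:**
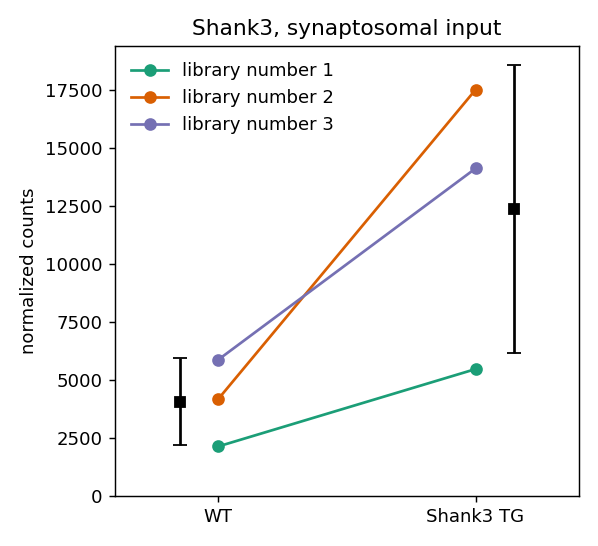
Shank3 in input libraries, in normalized counts. Coloured lines join the WT and TG library of a number, and black squares with bars are the group mean and SD (4047 ± 1871 in WT and 12355 ± 6210 in TG, n = 3). All 3 lines go up, while the TG library of number 1 (5456) lies below the WT library of number 3 (5858).

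The genes beside Shank3 lay near zero. The annotation holds 24 other genes within 250 kb of it, of which 12 were tested. Their log2 differences ran from -0.16 to 0.15 with a median of -0.076, 5 being higher and 7 lower in TG. The groups overlapped for all 12, as they did for Shank3 and for most genes. Of all genes tested, 1.23% had groups apart with TG above and 1.39% with TG below. Arsa, the arylsulfatase A gene that is the nearest tested gene before the start of Shank3, had 1738, 1359 and 2203 normalized counts in WT libraries 1, 2 and 3 and 1441, 1258 and 2193 in TG (-0.13 ± 0.11). Rabl2, a small GTPase gene 22.3 kb beyond its end, had 434, 419.7 and 448 in WT and 422, 346 and 401 in TG (-0.16 ± 0.14). Mapk8ip2, which encodes a scaffold of the JNK pathway and is the next tested gene before Arsa, had a difference of 0.11 ± 0.10. The upper end of the 95% interval was at most 1.14 for these 12 genes, below the lower end of 1.22 for Shank3. Acr, the acrosin gene 8.07 kb beyond Shank3, reached 7.10 normalized counts at most and was not tested.

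**Figure D2:**
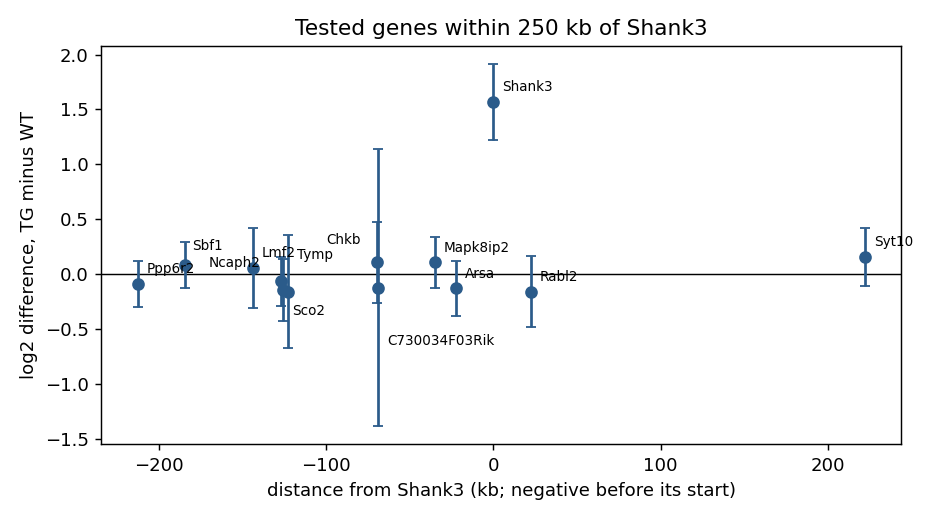
Log2 difference, TG minus WT, of Shank3 and the 12 tested genes within 250 kb, by distance from Shank3 in kilobases. Points are paired differences and bars 95% intervals; Shank3 stands at 1.57 and the neighbours lie between -0.16 and 0.15, the wide bar belonging to C730034F03Rik, a gene of at most 19.6 normalized counts.

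No gene passed the test in input. Of 16341 genes, 0 had an adjusted p under 0.05 (0% called), Shank3 was the 1 gene under 0.1 (0.00612%), and 445 (2.72%) had an unadjusted p under 0.05 (limma), 230 higher (1.41%) and 215 lower (1.32%) in TG. Without the block 80 genes (0.49%) had an unadjusted p under 0.05 and 0 passed. The median log2 difference was -0.0086, and 47.1% of genes were higher in TG. The TG library was higher in all 3 pairs for 9.52% of genes and lower in all 3 for 10.2%. Groups did not overlap for 1.23% with TG above and 1.39% with TG below. Pair differences of single genes correlated weakly or negatively: over the 9227 genes averaging 9 or more on the log2 scale, the values were -0.14 between pairs 1 and 2, -0.31 between 1 and 3 and 0.10 between 2 and 3. These are correlations across genes, which are not independent replicates.

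The precision depended on level. For the 4781 genes with a mean log2 level of 11 or more, the 95% interval reached 0.24 to either side in the median, and for 99.8% of them it lay within -1 to 1. Among the 2059 genes under a level of 5 the median reach was 1.20, and only 3.01% had an interval within that range. Over all genes tested 82.5% did. A doubling of a well-measured transcript lay outside the interval in nearly every case, while for most low genes it was not detectable with these libraries.

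The genes named next had the smallest p-values among annotated genes with the same sign in all 3 pairs and a mean log2 level of 5 or more. Each had an adjusted p of 1.00 (limma, Benjamini-Hochberg), so the values describe these libraries. Ucp2 encodes a mitochondrial carrier that uncouples respiration and lies on chromosome 7 at 100493337 to 100502020. It had 101, 34.6 and 87.8 normalized counts in WT libraries 1, 2 and 3 and 219, 105 and 162 in TG. Every TG value lay above every WT value (1.19 ± 0.24, unadjusted p = 0.000857, limma). Spink10, a Kazal-type serine protease inhibitor gene, had 124, 81.6 and 48.4 in WT and 180.1, 215 and 281 in TG (1.48 ± 0.34). Baiap2l2, a membrane-bending relative of the Shank partner Baiap2, had 36.3, 24.1 and 23.6 in WT and 60.7, 69.5 and 88.8 in TG (1.36 ± 0.34). The groups were apart for both. Ccl9, a chemokine gene, had 62.4, 91.5 and 119 in WT and 81.9, 301 and 326 in TG, with the TG library of number 1 inside the WT range (1.18 ± 0.28).

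St5, a DENN domain gene, and Malsu1, an assembly factor gene of the mitochondrial ribosome, also had groups apart. St5 had 249.8, 324 and 335 in WT and 378, 613 and 490.2 in TG (0.69 ± 0.15). Malsu1 had 213, 231 and 209 in WT and 244, 463 and 562 in TG (0.87 ± 0.23). The other higher genes overlapped between groups. They were the interleukin 17 receptor gene Il17rc (0.90 ± 0.20), Naa15 of the N-terminal acetyltransferase complex (0.59 ± 0.16), the calcium store genes Casq2 (0.58 ± 0.16) and Ryr1 (0.45 ± 0.12), and Gpr85, an orphan receptor gene of the brain (0.35 ± 0.093). Gpr85 was the steadiest of them, with pair differences of 0.37, 0.29 and 0.40 at 3948 to 7417 normalized counts.

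Rps6kb2 was among the lower genes. It encodes S6 kinase 2, a substrate of the mTORC1 kinase complex, and lies on chromosome 19 at 4153991 to 4163354. It had 192, 139.8 and 195 normalized counts in WT libraries 1, 2 and 3 and 113, 74.6 and 64.2 in TG, with every TG value below every WT value (-1.08 ± 0.24, unadjusted p = 0.00163, limma). Nfxl1, a zinc finger gene, had 150.1, 199 and 216 in WT and 102, 107 and 94.4 in TG (-0.88 ± 0.21). Krt77, a keratin gene, had 163, 119 and 147 in WT and 101, 50.2 and 77.7 in TG (-0.94 ± 0.23). The groups were apart for both.

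Tmem254a (-0.79 ± 0.17) and the histone gene Hist1h2ai (-1.51 ± 0.39) also had TG below WT throughout, but 72.9% and 92.0% of their sequence occurs in other genes, so their single values are uncertain. The remaining lower genes overlapped between groups: the caveolin gene Cav2 (-0.63 ± 0.14), Zmym1 (-0.65 ± 0.14), the integrin gene Itga3 (-0.65 ± 0.15), the Ras exchange factor gene Rasgrf2 (-0.48 ± 0.12), Bckdhb of branched-chain amino acid breakdown (-0.50 ± 0.13), Zfp423 (-0.56 ± 0.15) and Vars2, the mitochondrial valyl-tRNA synthetase gene (-0.51 ± 0.14). Rasgrf2, the most abundant of these, had 4876, 3001 and 6599.7 in WT and 4075, 1731 and 5041 in TG, which puts both libraries of number 2 lowest.

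**Figure D3:**
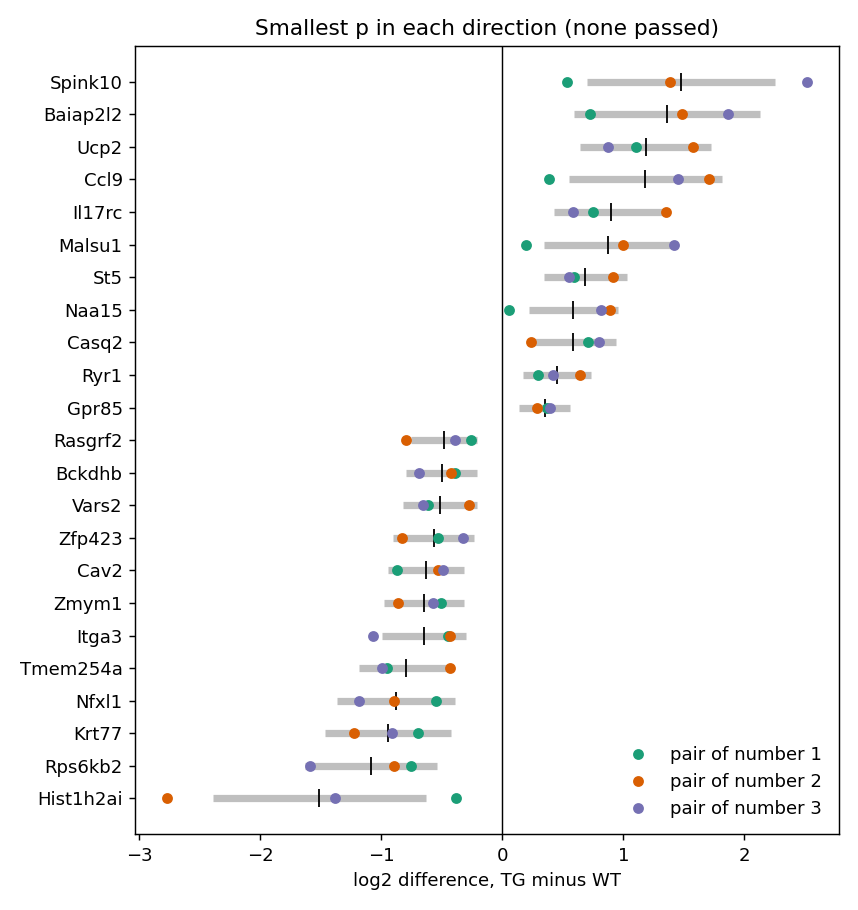
Log2 differences, TG minus WT, of the 11 higher and 12 lower genes with the smallest p other than Shank3. Coloured points are the 3 pairs, black ticks the paired estimate and grey bars its 95% interval; the pairs of Gpr85 lie together (0.29 to 0.40), while those of Hist1h2ai spread from -2.77 to -0.38.

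The 31 gene lists held 822 distinct tested genes, and 0 of them passed. Of these, 16 had an unadjusted p under 0.05 as higher and 11 as lower, 3.28% against 2.72% of all genes, and 95.9% had an interval within -1 to 1. List medians ran from -0.21 to 0.18. The 3 pair medians had the same sign in 5 lists: 4 above 0 and 1 below.

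The scaffold proteins that bind SHANK3 or bridge it to receptors and actin lay close to zero as a list. Of 30 members 18 were higher and 12 lower (median 0.024; 0.16 in the pair of number 2 against -0.091 and -0.038 in the others), and all 30 intervals lay within -1 to 1. Shank1, a close relative of Shank3, had 1301, 986 and 6077 normalized counts in WT libraries 1, 2 and 3 and 1375, 2179 and 7603 in TG. Its pair differences were 0.08, 1.14 and 0.32 (0.52 ± 0.18, unadjusted p = 0.021, adjusted p = 1.00, limma), with number 2 differing most. Dlgap3, which encodes the striatal DLGAP protein SAPAP3, had 5459.7, 9034 and 14963 in WT and 6973, 20261 and 14894 in TG (0.50 ± 0.19). It too differed most in number 2, by 1.17, and by -0.0067 in number 3. Shank2 (0.11 ± 0.14), Homer1 (0.11 ± 0.099), Homer2 (-0.17 ± 0.11), Dlg4, the PSD-95 gene (0.081 ± 0.11), cortactin gene Cttn (0.0094 ± 0.10) and the deubiquitinase gene Cyld (0.12 ± 0.093) had smaller differences.

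Receptors and release genes were measured precisely and lay near zero. All 33 glutamate receptor and auxiliary subunit genes had an interval within -1 to 1, with 14 higher and 19 lower (median -0.023). The NMDA receptor subunit gene Grin2b differed by -0.031 ± 0.17, the AMPA receptor subunit gene Gria1 by -0.039 ± 0.13 and Grm5, the metabotropic receptor gene linked to Shank through Homer, by -0.02 ± 0.11. The same held for 15 of 15 GABA-A receptor and gephyrin genes (7 higher and 8 lower, median -0.048). It also held for 44 of 44 presynaptic release genes (14 higher and 30 lower, median -0.048). For adhesion genes it was 28 of 28 (16 higher and 12 lower, median 0.0086). Of all genes tested, 82.5% had such an interval, 99.8% of those at a mean log2 level of 11 or more, and 47.1% were higher in TG. In each of these 4 lists the pair of number 1 had the lowest median (-0.24, -0.13, -0.17 and -0.26) and the pair of number 3 the highest (0.15, 0.13, 0.034 and 0.22). Among actin regulators, 28 were higher and 21 lower (median 0.0084), and the 3 pair medians were 0.0084, 0.016 and 0.013. Transcripts bound by FMRP (36 of 56 higher, median 0.021) and dendritic transcripts (14 of 23 higher, median 0.039) had pair medians of both signs.

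Medium spiny neuron genes lay higher in TG on average and cortical genes lower, with values smaller than the spread between numbers. Markers of both kinds of medium spiny neuron were higher in 26 of 26 members (median 0.16), against 47.1% of all genes. In all 3 pairs 7 were higher, against 9.52% of all genes, and the pair medians were 0.34, 0.17 and -0.029. The members vary together between library numbers, so they are not separate observations. Adcy5, the adenylyl cyclase of striatal dopamine signalling, had 37473, 75474 and 50269 normalized counts in WT libraries 1, 2 and 3 and 48158, 93640.4 and 58455 in TG (0.30 ± 0.11). Its pairs differed by similar amounts (0.36, 0.31 and 0.22), yet both libraries of number 2 exceeded the other 4.

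Of the indirect-pathway markers, 9 of 11 were higher (median 0.15; pairs 0.07, 0.19 and 0.20). The dopamine D2 receptor gene Drd2 had 5016, 10942 and 6229 in WT and 5648, 15762 and 7352 in TG (0.31 ± 0.10). Of the direct-pathway markers, 8 of 12 were higher (median 0.13; pairs 0.073, 0.11 and 0.22). The substance P precursor gene Tac1 differed by 0.27 ± 0.12 and the D1 receptor gene Drd1 by 0.15 ± 0.11. Cortical excitatory markers were lower in 20 of 22 members (median -0.12), with pair medians of -0.45, -0.097 and 0.11. Fezf2, a transcription factor gene of deep-layer cortical neurons, had 700.2, 479.7 and 610.3 in WT and 455, 340.3 and 538 in TG (-0.43 ± 0.14). Thalamic markers were lower in 7 of 12 members and higher in 5 (median -0.086; pairs -0.15, -0.20 and -0.07), where 47.1% of all genes were higher. They ran from the vesicular glutamate transporter gene Slc17a6 (-0.55 ± 0.20) to Synpo2 (0.11).

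These lists also separated the library numbers. Relative to the mean of the 6 libraries, medium spiny markers stood at 0.62 in number 2 against -0.26 and -0.35 in numbers 1 and 3, and cortical markers -0.51 against 0.23 and 0.31. Summed over the list, medium spiny markers took 454827 to 884275 normalized counts in WT and 525122 to 1005110 in TG libraries, and cortical markers 128857 to 221032 and 122535 to 225909. The defining markers Ppp1r1b, Drd1 and Slc17a7 were above 0 in all 6. The part of tissue makeup in the genotype differences was not tested.

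**Figure D4:**
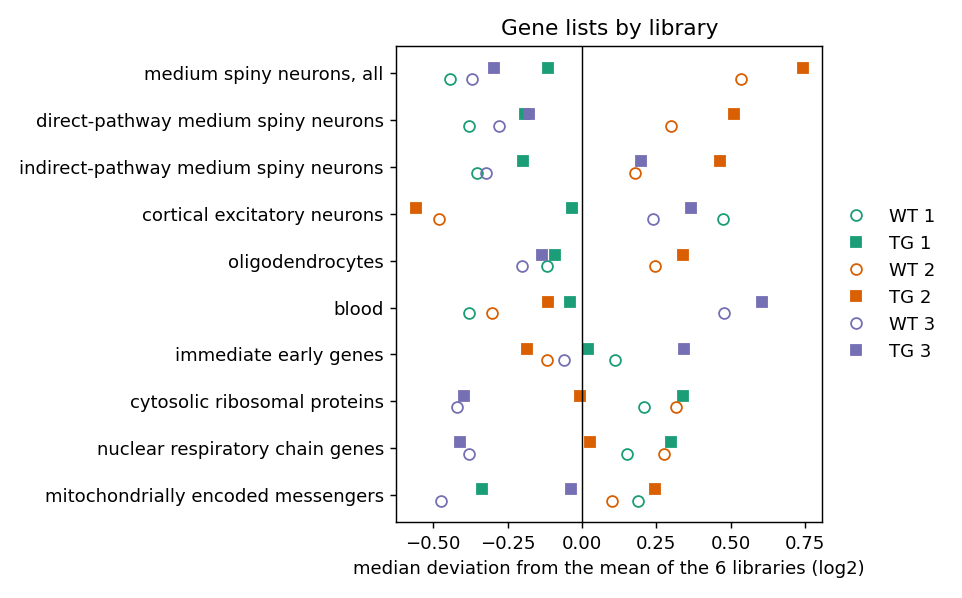
Median deviation of 10 gene lists from the mean of the 6 input libraries, on the log2 scale; open circles are WT, filled squares TG, and colours the library numbers. How close libraries of a colour lie differs between lists. Medium spiny markers stand at 0.53 and 0.74 in the libraries of number 2 and between -0.44 and -0.11 in the others. Cortical markers of number 1 stand apart, at 0.47 in WT and -0.035 in TG, as do immediate early genes of number 3 (-0.062 in WT and 0.34 in TG).

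Among immediate early genes, induced when neurons fire, 27 of 35 had a higher TG mean and 8 were higher in all 3 pairs, against 9.52% of all genes (list median 0.18, against -0.0086). The groups did not overlap for 4 with TG above (Gadd45g, Dusp5, Nr4a3 and Klf10) and 1 with TG below (Klf2), against 1.23% and 1.39% of all genes. Gadd45g, a gene linked to DNA demethylation, had 273, 201 and 289.6 normalized counts in WT libraries 1, 2 and 3 and 363, 293 and 458 in TG (0.54 ± 0.15). Fosl2, a Fos family transcription factor gene, had 1601, 2033 and 1774 in WT and 1900.4, 2549 and 2591 in TG (0.37 ± 0.11). Npas4, an activity-dependent transcription factor gene, had the highest mean difference of the list but pairs of -0.56, 0.55 and 1.83 (0.60 ± 0.35). The TG library of number 3 held 3908 normalized counts of it, against 359 to 1102 in the other 5. Fos (pairs -0.03, -0.12 and 0.89) and Bdnf (-0.48, -0.38 and 1.03) were likewise higher in TG mainly in number 3. The list medians of the pairs were -0.076, 0.058 and 0.31.

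In the mTORC1 pathway 34 of 51 members were lower (median -0.035). In all 3 pairs 7 were lower and 3 higher, against 10.2% and 9.52% of all genes. Beside Rps6kb2 the lowest unadjusted p belonged to Akt1s1, the mTORC1 inhibitor gene PRAS40 (-0.30 ± 0.13), and Eif4ebp1, which encodes a translational repressor, differed by -0.64 ± 0.30. The kinase gene Mtor (-0.013 ± 0.11) and the paralog Rps6kb1 (0.09 ± 0.18) lay near zero.

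Translation factors had 22 higher and 30 lower of 52 (median -0.015). Eif5b, an initiation factor that joins the ribosomal subunits, had 1619.9, 1713 and 1555 in WT and 1474, 1032 and 892 in TG, all below WT (-0.56 ± 0.15, unadjusted p = 0.00461, limma). Cytosolic ribosomal protein genes were lower in 63 of 80 members (median -0.054), but the pair medians were 0.13, -0.33 and 0.044. Rpl24 ran from 0.10 to -1.47 (-0.58 ± 0.24), and 52.7% of its sequence occurs in other genes. Secretory chaperones were lower in 22 of 25 members (median -0.09; pairs -0.22, -0.099 and 0.08), with Pdia6 at -0.22 ± 0.10. Proteasome genes were lower in 18 of 31 (median -0.023).

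Nuclear respiratory chain genes were lower in 52 of 76 members (median -0.04), with pair medians of 0.18, -0.23 and -0.047, the order seen in ribosomal proteins. Messengers of mitochondrial DNA spread more between pairs, with medians of -0.55, 0.22 and 0.44 and 9 of 13 higher. For mt-Co3, a cytochrome oxidase subunit, the WT libraries had 522926, 697930.0 and 632886 normalized counts and the TG libraries 541912, 323546 and 63002, with pair differences of 0.051, -1.11 and -3.33. The sequence of mt-Co3 occurs in other genes to 99.9% and that of mt-Co2 (0.13, -0.26 and 1.75) to 100%, so their single values are uncertain. Mitochondrial ribosomal RNA took 39.1% to 46.2% of the signal in WT and 39.8% to 46.8% in TG input.

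**Figure D5:**
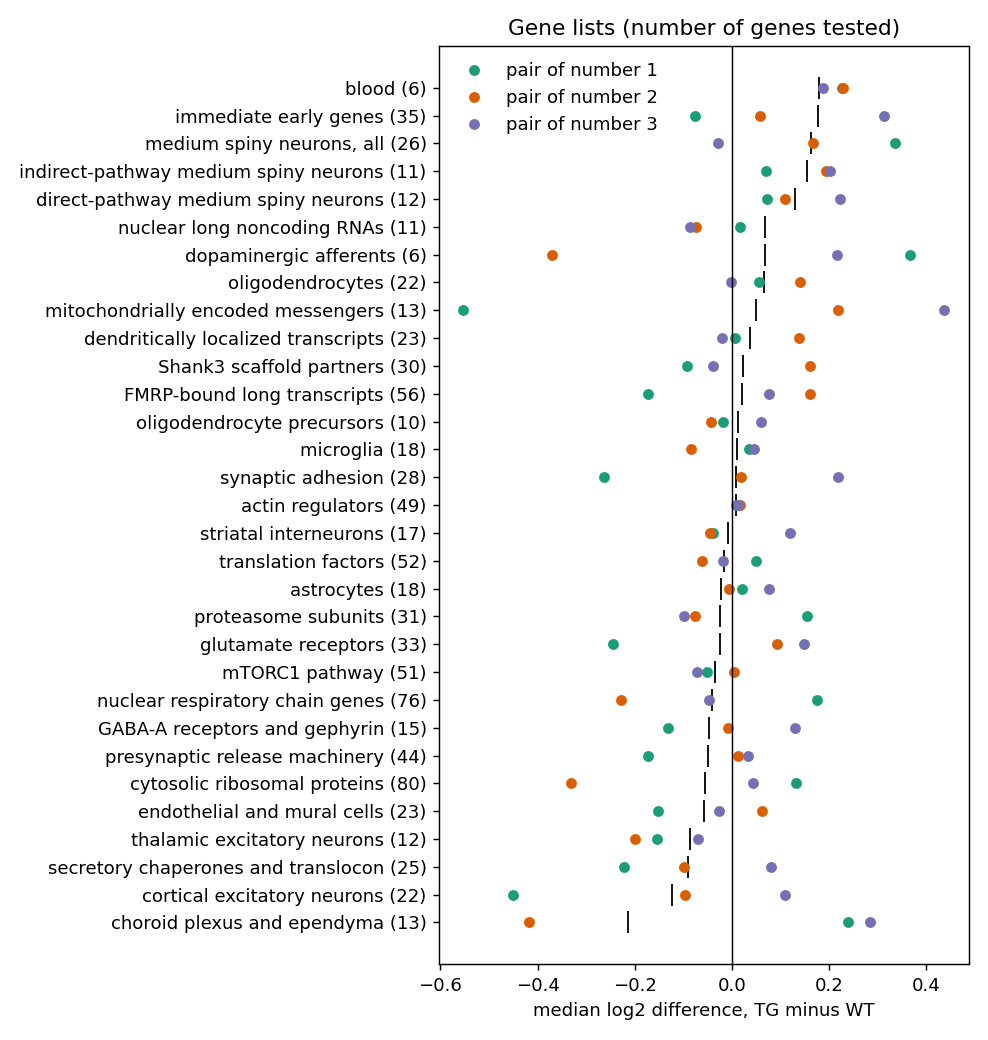
Median log2 difference, TG minus WT, of each of the 31 gene lists, with the number of genes tested. Black ticks are the medians of the paired estimates and coloured points the medians of the 3 pairs; they run from -0.21 for choroid plexus and ependyma to 0.18 for blood, and in most lists the pairs lie on both sides of 0.

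Glial lists lay near zero. Astrocyte markers had 8 higher and 10 lower of 18 (median -0.022), from Agt as the lowest (-0.32) to Gfap as the highest (0.37). Gfap, the intermediate filament of reactive astrocytes, had 3114, 2984 and 3901 in WT and 3534, 4216 and 5204 in TG (0.37 ± 0.10, unadjusted p = 0.00697, limma), while the water channel gene Aqp4 differed by 0.11 ± 0.092. Oligodendrocyte markers were higher in 18 of 22 (median 0.067), with both libraries of number 2 above the rest. Microglial (median 0.012) and precursor markers (median 0.013) had pair medians of both signs. Endothelial and mural markers were lower in 16 of 23 (median -0.057), with 19 intervals within -1 to 1. Striatal interneuron markers (8 of 17 higher, median -0.0074), dopaminergic afferents (3 of 6, median 0.068) and nuclear long noncoding RNAs (6 of 11, median 0.068) had no common direction. Blood genes were higher in 6 of 6 (median 0.18; pairs 0.23, 0.23 and 0.19). Hba-a2, an alpha globin gene, differed by 0.25 ± 0.11, and 92.6% of its sequence occurs in other genes. Choroid plexus and ependymal markers had the lowest median (-0.21) with pairs of 0.24, -0.42 and 0.28. Ttr, the transthyretin gene of the choroid plexus, had 228, 9483 and 8156 normalized counts in WT and 1191, 357 and 14363 in TG, with the low libraries in both groups.

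The same genotype comparison in the polysome libraries allowed a test of the difference. In polysome 1 of 16312 genes passed (0.00613%), Shank3, and 438 (2.69%) had an unadjusted p under 0.05. For Shank3 the polysome difference was 1.53 ± 0.15 and the difference between the fractions -0.042 ± 0.19 (adjusted p = 1.00, limma). Of 16962 genes, 0 passed that test (0% called), with 209 (1.23%) at an unadjusted p under 0.05. Several of the genes named above, picked for small p-values in input and not in polysome, had polysome values unlike those of input. Rps6kb2 differed by 0.22 ± 0.16 in polysome against -1.08 in input, Spink10 by -0.91 ± 0.34 against 1.48, Baiap2l2 by -0.62 ± 0.31 against 1.36, and Ucp2 by -0.13 ± 0.16 against 1.19. St5 (0.044 ± 0.14), Nfxl1 (0.046 ± 0.17) and Krt77 (0.013 ± 0.26) were among those near zero in polysome. Gpr85 (0.54 ± 0.11), Cav2 (-0.52 ± 0.13), Casq2 (0.41 ± 0.14) and Gfap (0.37) had the sign of input. The differences between the fractions are not shown for any of these genes, since none passed the adjusted test.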

How the data were processed

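RNA of striatal synaptosomes (input, 6 libraries) and of their polyribosomes (6 libraries) was sequenced from stranded total RNA, per the labels' protocols. The build GRCm38 and the tools Salmon 1.1.0, DESeq2 1.26.0 and R 3.6.2 are named, per the submitters' processing notes. The sources read give no annotation, strand setting or normalization model. The deposited signal values are estimated counts per gene that the authors normalized, and they are not whole, so no count test was run. Low values bunch near multiples of a step, which gave the estimated depths, but only 29.3% to 46.0% of values up to 20.5 steps in input lay within 0.1 of a whole number. Symbols, coordinates, exonic lengths and the share of 31-base words found in other genes came from GENCODE M21 (21465 of 21492 identifiers matched).

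Values were transformed to log2(value + 1) and fitted with limma 3.58.1 (R 4.3.3) with a variance trend, two-sided, with Benjamini-Hochberg adjustment over all genes. The scale understates changes of low genes. Input was fitted on 6 libraries with the library number as a block, and the polysome libraries likewise; the difference between fractions used all 12 with the number within genotype as a block. The pairing comes from shared numbers, whose meaning the labels do not give: deviations from group means correlated at 0.43 to 0.51 between same-numbered input libraries and at -0.37 to -0.025 otherwise. The input fit was run on simulated data drawn from its own fitted levels and variances, and the other fits were not. The comparison, lists and named genes were chosen with earlier results of these data known. Named genes were Shank3, its neighbours within 250 kb, the 12 smallest p-values in each direction (Shank3 among them) averaging 5 or more on the log2 scale, the same sign in all pairs and no predicted symbol, and list members with the smallest p in each direction; other members of the lists were named for their role or pattern after their values were seen. Alternatives changed the block, scaling, filter, pseudocount, variance trend, libraries and threshold.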

Additional observations from a re-analysis of the deposited data

How the results depend on the processing

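In input the count of genes called was 0 without the replicate block, with TMM scaling, with no filter, with a mean value of at least 50, with a pseudocount of 0.5 or 10, without the variance trend and with all 12 libraries. At an unadjusted p under 0.05 there were 80 genes without the block, against 445 with it, 578 without the trend, 610 with no filter, 625 with all 12 libraries and 1041 without number 1. At an adjusted p under 0.1 it was 1, Shank3. Leaving out a pair gave 1 to 6 calls, all including Shank3: 1 without number 1, 6 without number 2 and 2 without number 3. The others, named after their values were seen, were Pagr1a, Gm11639, Pdlim1, Ttr and Gm42742 without number 2 and Gm42418 without number 3. Fits without pairing that left out single libraries, added after the data were examined, called 0 or 1 gene (1, Gm42742, without TG number 2).

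The Shank3 difference ran from 1.32 to 1.72 with a pair left out (1.67, 1.32 and 1.72 without numbers 1, 2 and 3) and passed each time; the cause was not tested. Without the replicate block it was 1.57 ± 0.49 (adjusted p = 1.00), with a range of 1.16 to 2.08 without single libraries, and it did not pass. Over the alternatives with the pairs kept, its adjusted p ran from 0.0504 with a pseudocount of 10 to 1.00 without the variance trend.

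The difference between fractions had 0 calls, 0 to 2 with a number left out (2 without number 2, 1 without number 3). For Shank3 it was -0.25 without number 1, and it changed sign to 0.088 without number 2 and 0.037 without number 3, so its direction is not settled. The 23 genes other than Shank3 named for the smallest p-values stayed above the threshold in all 253 combinations of gene and input alternative. Their direction held too, but they were picked for the same sign in all 3 pairs, so leaving out a pair could not reverse it. Changing the block, filter or variance trend leaves the estimate as it is. Ttr, named as a list member, was called only without number 2, at 1.60 against -0.51 with all pairs. Of 341 list medians under these alternatives 30 changed sign, 29 of them on leaving out a pair. With 3 pairs, low genes are limited by precision.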
